A study of Mus musculus with 32 samples.

Results

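The livers of wild-type (WT) female mice on the control diet were compared with those of WT male mice on the same diet, gene by gene, for the genes of the autosomes. The comparison used 8 of the 32 RNA-seq libraries of the series, 4 from WT females and 4 from WT males, and its members were taken from the sex, genotype and diet in the labels. Both groups carried the intact Nudt7 gene, were labelled C57BL/6J, received a control diet (CD) with 10% of its energy as fat and 0% cholesterol from 6 weeks of age, and were killed at 17 to 20 weeks. The other libraries came from Nudt7-/- (KO) mice of both sexes and from mice on a Western diet (WD) with 41% of energy as fat and 0.2% cholesterol, again 4 per sex, genotype and diet. The KO allele lacks exons 3 and 4 of Nudt7, a peroxisomal hydrolase of CoA. It came from 1 mosaic founder made in FVB zygotes and crossed onto C57BL/6J, and according to the methods the WT mice were littermates in that breeding. The libraries were labelled as separate samples with no mouse identifier, and whether they were taken from fed or fasted mice was not given in the sources used here.

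The liver is one of the organs in which male and female rodents differ most in gene expression. In adult rodents the pituitary releases growth hormone in widely spaced pulses in males and more continuously in females, and hepatocytes read this pattern through the growth hormone receptor and the transcription factor STAT5b. Genes known for sex-dependent levels in mouse liver include many cytochrome P450 (Cyp) enzymes, which oxidise steroids and foreign compounds, sulfotransferases (Sult), which add sulfate to steroids and bile acids, and the major urinary proteins (Mup), which carry pheromones into the urine.

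The 8 libraries held 11071146 to 14444419 estimated counts each, of which 0.328% to 0.383% fell on transcripts outside the annotation used. Levels are given in CPM, which expresses counts relative to the scaled total of the library. The labels of sex fitted the data, since 4 Y-linked genes summed to 0.176 to 0.814 CPM in the females and 135 to 171 CPM in the males. The 10 hepatocyte markers, all detected, summed to 84990 to 103400 CPM in the females and 79400 to 94270 CPM in the males.

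Some female libraries also held transcripts of the pancreas. The summed level of 23 markers of pancreatic acinar cells was 83.3, 7794, 66.9 and 1594 CPM in females 1 to 4, against 13, 18.8, 29.4 and 21.4 CPM in males 1 to 4. Females 2 and 4 thus stood far above the other libraries, and all 4 females were above all 4 males. Prss2, which encodes a trypsinogen, was at 3.17, 416, 2.74 and 81.1 CPM in the females and 0, 0.146, 0.603 and 0 CPM in the males. None of the 18 acinar markers that could be tested passed the test of edgeR (Prss2, adjusted p = 0.17), with 14 at an unadjusted p under 0.05 and 18 called by DESeq2. Their median log2 difference was 9.76, or 9.66 with genes at 0 in 1 sex set at their bound. Without females 2 and 4, and with 10 counts required in 2 libraries in place of 4, 13 of the 18 were called higher in females. Of the 23 markers, 7 (Amy2b, Clps, Pnliprp1, Prss1, Prss3, Reg1 and Try5) were at 0 in every male library and none was at 0 in every female library. The 8 markers of B and plasma cells also varied, with a sum of 12.7 to 181 CPM in the females and 10.8 to 23 CPM in the males, and 0 of the 5 that could be tested passed the test of edgeR (2 at an unadjusted p under 0.05, and Igkc called by DESeq2). Female 2 stood apart from its group beyond these genes: it was the isolated highest value among the females for 2.21% of all tested genes and the isolated lowest for 1.86%, against at most 1.06% for any other library. The part of the pancreatic RNA in the results that follow was not tested, so the main counts are also given without females 2 and 4.

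**Figure D1:**
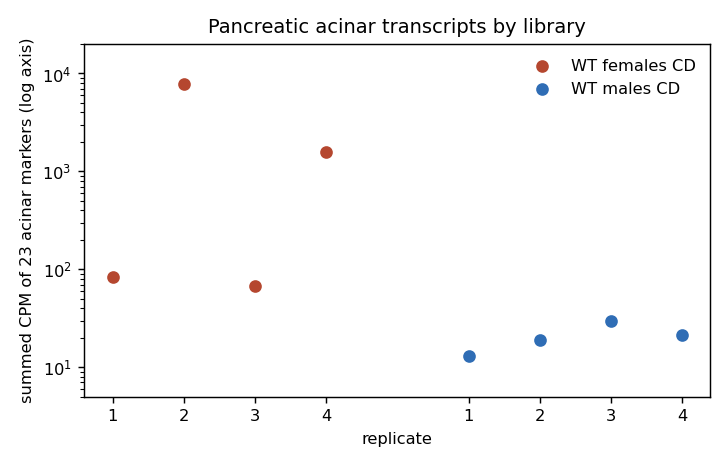
Summed CPM of 23 pancreatic acinar markers (log axis) in each WT library on the CD, females left and males right, 1 point per library. Females 2 and 4 lie at 7794 and 1594 CPM, and the other 6 libraries lie between 13 and 83.3 CPM.

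Of 32708 autosomal genes, 12114 had enough counts to be tested, and 267 of them (2.2%) differed between the sexes at an adjusted p under 0.05. In females 130 were higher (1.07% of the genes tested) and 137 were lower (1.13%). The median log2 fold change over all tested genes was 0.00, and 1810 genes had an unadjusted p under 0.05. The 4 female values did not overlap the 4 male values in any of the 267, which also held for 9.87% of all genes tested. The differences were often large: 88 of the higher and 79 of the lower genes were past 2-fold, 27 and 23 past 10-fold, and 17 and 6 past 100-fold. In whole tissue, fewer cells of a type and less RNA per cell cannot be told apart. Without females 2 and 4, 223 genes were called, of which 153 were among the 267, and 240 of the 267 could still be tested, because with 2 females left a gene silent in males no longer reached the required 4 libraries. With a requirement of 2 libraries in their place, 273 were called, 183 of the 267 kept the call, and 267 of 267 kept their sign. The count moved with single libraries: it was 160 without female 1, 407 without female 2, 171 without male 2, 140 without male 3 and 172 without male 4.

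**Figure D2:**
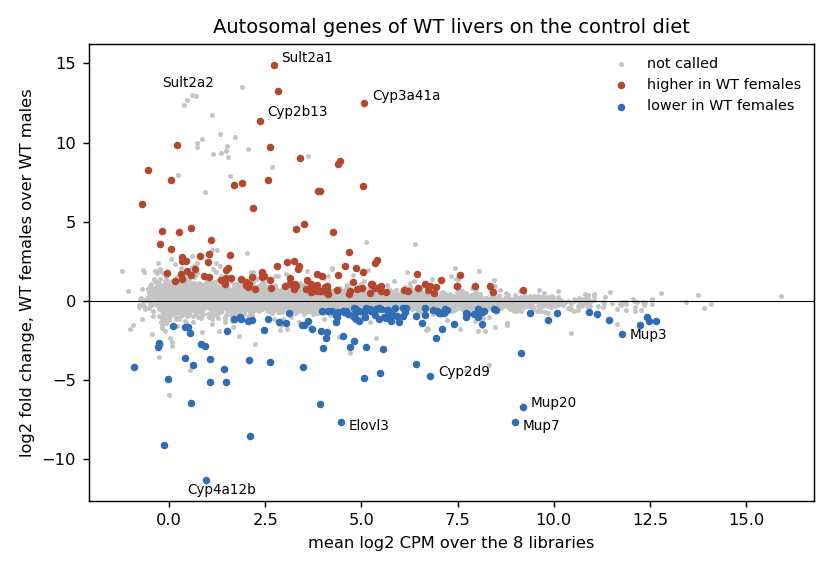
Log2 fold change of WT females over WT males (vertical) against mean log2 CPM over the 8 libraries (horizontal), 1 point per tested autosomal gene, with the 130 higher genes in red and the 137 lower genes in blue. The far ends of the vertical axis are held by Sult2a1 at 14.92 and Cyp4a12b at -11.32, both at 0 in one sex, so that their fitted fold changes depend on the prior count.

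Among the called genes, those with the largest excess in females were 2 sulfotransferases of the Sult2a group, which add sulfate to hydroxysteroids and bile acids. Sult2a1 (chromosome 7, 13796246 to 13837409, minus strand, GRCm38) was at 467, 326, 309.8 and 119 CPM in the females and at 0 in all 4 males. Its 15768 female counts against 0 make it at least 4740-fold higher in females, with the males set at 3 counts over the group (fitted log2 fold change 14.92 ± 1.12, SE, adjusted p = 0.0107). Sult2a2, beside it on the other strand (13733505 to 13779636), was at 399, 382, 280.4 and 159.6 CPM in the females and 0, 0.0728, 0 and 0 CPM in the males, a single male count. The ratio was 14200 with a 95% counting interval of 2550 to 561000 (adjusted p = 5.22e-07). The members of this group are similar in sequence: 44.4% of the 31-base words of Sult2a1 and 25.5% of those of Sult2a2 occurred in no other gene, so the split of reads between them is uncertain. The sum over Sult2a1 to Sult2a6 was 944, 758, 617 and 299 CPM in the females, against 1 count over all males.

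Also among the largest differences were those of 3 Cyp3a genes on chromosome 5, which encode steroid and drug hydroxylases. Cyp3a41a (145694049 to 145720136, minus strand) was at 2989.7, 1941, 2703 and 1589.7 CPM in the females and 0.171, 0.655, 0.431 and 0.274 CPM in the males (log2 fold change 12.48 ± 0.39, adjusted p = 1.2e-08). Only 0.148% of its 31-base words were its own, because Cyp3a41b is nearly the same, and Cyp3a41b itself, at 168, 37.4, 218 and 41.1 CPM in the females and 0 in all males, was not called (fitted log2 fold change 13.52 ± 2.08, adjusted p = 0.12). The pair summed to 3158, 1978, 2921 and 1631 CPM in the females and 0.171 to 0.655 CPM in the males. Cyp3a44 (145773983 to 145805874, minus strand) was at 284, 89.3, 303 and 198 CPM in the females and 0.684, 0.291, 0.431 and 0.274 CPM in the males (9.0 ± 0.55, adjusted p = 7.86e-05). Cyp3a16 was at 202, 33.5, 219 and 139 CPM in the females and 0.171, 0.0728, 0.345 and 0.0913 CPM in the males (9.71 ± 0.92, adjusted p = 0.00231). Female 2 was the lowest of the females for both Cyp3a16 and Cyp3a44, whose groups, as in all called genes, did not overlap. No other of the 8 tested Cyp3a genes was called, and Cyp3a11 was at 1474, 1162, 890.0 and 2227 CPM in the females and 989, 1041, 1029.9 and 598 CPM in the males (adjusted p = 0.298).

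The starts of Cyp3a41a and Cyp3a44 are near copies. The 100 bases before each start, from the RefSeq promoter table on GRCm38.p6, are shown 5′ to 3′ because both genes were near 0 in males, with the bases that differ between the pair in capitals. They lie at chr5:145720137-145720236 and chr5:145805875-145805974, both on the minus strand, and 6 of the 100 bases differ (14 of 250).
Cyp3a41a: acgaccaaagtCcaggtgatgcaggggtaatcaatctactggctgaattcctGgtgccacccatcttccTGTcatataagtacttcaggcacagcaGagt
Cyp3a44: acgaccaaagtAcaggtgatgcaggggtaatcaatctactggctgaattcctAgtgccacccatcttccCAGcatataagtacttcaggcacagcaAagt

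Cyp2b13 and its neighbour Cyp2b9, P450 enzymes of chromosome 7, lie side by side and share the sequence before their starts. Cyp2b13 (26061497 to 26096197, plus strand) was at 151, 129.6, 129.9 and 132 CPM in the females and 0.0855, 0.0728, 0 and 0 CPM in the males, 2 male counts in all. Its ratio was 3250 with a 95% counting interval of 900.0 to 26900 (log2 fold change 11.36 ± 0.27, adjusted p = 8.59e-10). Cyp2b9, singled out after its values were seen, was at 632, 553, 633 and 661 CPM in the females and 181, 20.9, 3.36 and 1.19 CPM in the males. The females were close together, the males spread over more than 2 orders of magnitude, the groups did not overlap, and the gene was not called (3.58 ± 1.49, adjusted p = 0.335). The 100 bases before the start of Cyp2b13 (chr7:26061395-26061494, plus strand) and of Cyp2b9 (chr7:26173309-26173408, plus strand) are the same base for base, and 2 of 250 differ.
Cyp2b13: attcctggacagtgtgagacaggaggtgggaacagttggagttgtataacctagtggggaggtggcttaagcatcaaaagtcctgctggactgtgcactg
Cyp2b9: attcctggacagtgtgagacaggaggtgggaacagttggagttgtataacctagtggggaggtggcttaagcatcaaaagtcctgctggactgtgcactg

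Other P450 genes with high female levels lay in the Cyp2a and Cyp2c clusters. Cyp2a4, a steroid 15-alpha-hydroxylase, was at 469, 863, 532 and 405 CPM in the females and 3.51, 1.02, 0.345 and 0.0913 CPM in the males (8.82 ± 0.84, adjusted p = 0.00238). Its near copy Cyp2a5, which encodes the coumarin hydroxylase, was at 347, 211, 305 and 157 CPM in the females and 152, 144, 246 and 108 CPM in the males and was not called (adjusted p = 0.357). Since 41.9% of the words of Cyp2a4 were its own, the pair was also summed, to 816, 1074, 837 and 562 CPM in the females and 156, 145, 246 and 108 CPM in the males. Cyp2c40, which encodes an enzyme of arachidonic acid, was at 403, 441, 516 and 611 CPM in the females and 0.855, 1.46, 2.41 and 0 CPM in the males (8.67 ± 0.65, adjusted p = 4.43e-04). Only 27.4% of the words of Cyp2c40 were its own, so its level as a single gene is uncertain. In the Cyp2a and Cyp2b cluster 4 of 7 tested genes were higher and none was lower, and in the Cyp2c cluster of chromosome 19 3 of 13 were higher and 1 was lower.

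A1bg and Sult3a1 completed the 10 largest differences in this direction among called protein-coding genes with a mean log2 CPM above 1. This limit left out genes such as Sult2a5 (9.85) here and Cyp4a12b (-11.32) and Nat8f5 (-6.46) in the other direction. A1bg, which encodes a plasma protein of the immunoglobulin superfamily, was at 101, 46.0, 63.9 and 159.7 CPM in the females and 0.513, 1.09, 0 and 0.0913 CPM in the males (7.65 ± 0.76, adjusted p = 0.00257). Sult3a1, an amine sulfotransferase, was at 52.5, 20.7, 50.3 and 59.2 CPM in the females and 0.770, 0.146, 0.0862 and 0 CPM in the males (7.46 ± 0.64, adjusted p = 8.7e-04). Of the 20 genes with the largest differences by this rule in either direction, 14 had a window of 250 bases before to 50 after the start in the RefSeq table, and A1bg and Sult3a1 were the 2 whose window held TTCNNNGAA, the core of STAT5 and BCL6 sites. The motif reads the same on both strands in this form and was in 8.3% of all 32851 windows. The stretches that hold it are at chr15:60921271-60921390 (minus strand), where the motif starts 84 bases before the A1bg start, and at chr10:33857602-33857721 (plus strand), 109 bases before the Sult3a1 start, with the motif in capitals.
A1bg: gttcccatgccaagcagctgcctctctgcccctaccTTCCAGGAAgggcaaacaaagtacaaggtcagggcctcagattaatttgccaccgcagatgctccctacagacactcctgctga
Sult3a1: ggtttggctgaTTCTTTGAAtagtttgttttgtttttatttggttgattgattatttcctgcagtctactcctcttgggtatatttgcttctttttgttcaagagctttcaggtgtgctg

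**Figure D3:**
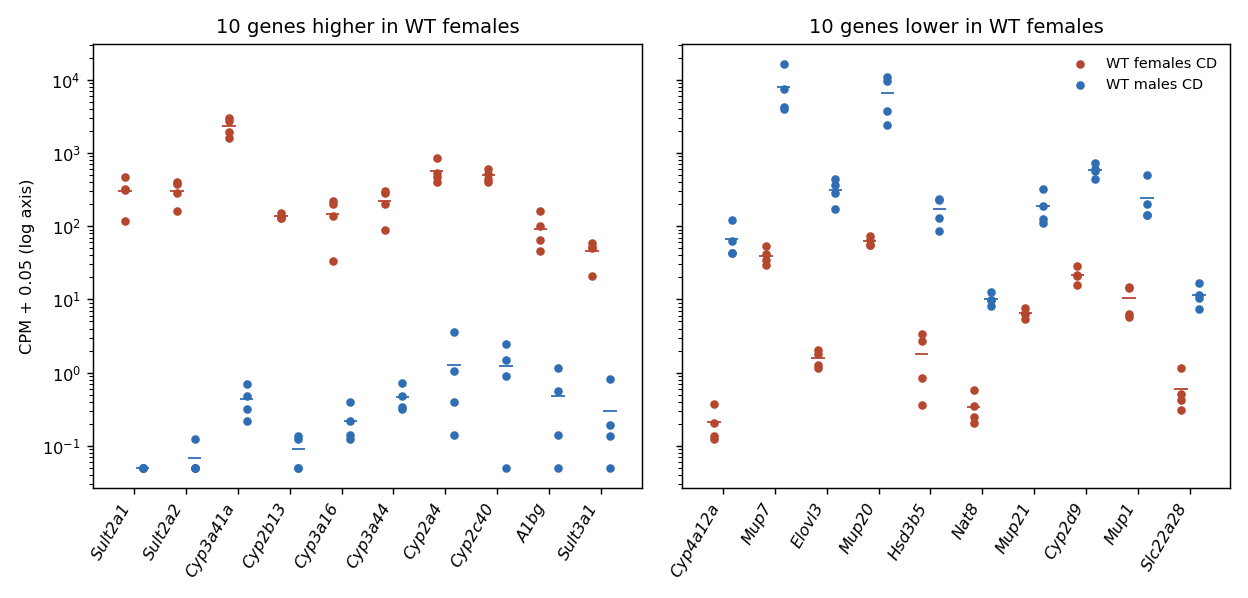
CPM (plus 0.05, log axis) in each library for the 10 called protein-coding genes with the largest higher and the 10 with the largest lower differences above a mean log2 CPM of 1, WT females in red left of WT males in blue, with short lines at the group means. The lack of overlap between groups was part of the rule that chose these genes. The males of the left panel all lie at or below 3.51 CPM.

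The genes that were lower in females were led by urinary proteins and by enzymes of fatty acids and steroids. All 22 tested Mup genes lay in a stretch of chromosome 4 (59956804 to 62150863), 13 of them were lower and none was higher. Together they took 0.724% to 1.52% of the scaled counts in the females and 3.38% to 7.47% in the males. Mup7 was at 41.5, 34.0, 52.9 and 29.1 CPM in the females and 4222, 4034, 7441 and 16300.0 CPM in the males (log2 fold change -7.66 ± 0.61, adjusted p = 3.78e-04). Mup20, which encodes darcin, a male pheromone that attracts females, was at 55.5, 74.6, 65.7 and 56.1 CPM in the females and 2397, 3772, 9632 and 10886 CPM in the males (-6.73 ± 0.58, adjusted p = 6.04e-04). The males thus differed among themselves by several fold, with males 3 and 4 the highest for both genes, while the females were within 2-fold of each other. Mup21 was at 6.33, 7.65, 5.33 and 6.42 CPM in the females and 112, 125, 188 and 324 CPM in the males (-4.86 ± 0.38, adjusted p = 2.4e-04). Mup18 went the other way, at 484, 210.3, 479 and 162 CPM in the females and 285, 182, 477 and 169.7 CPM in the males, and was not called (0.26 ± 0.48, adjusted p = 0.863). Mup genes are near copies: 9.98% of the words of Mup7 and 38.1% of those of Mup20 were their own, so the sum is firmer than any single gene. Without females 2 and 4, 4 of the 22 were called, or 5 with the requirement of 2 libraries, and the median log2 fold change was -2.12 with that requirement, against -2.17 with all libraries. Mup7 (-7.40, adjusted p = 0.0528) and Mup20 (-6.78, adjusted p = 0.0693) were among those that lost the call there.

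Cyp4a12a and Cyp4a12b, which encode omega-hydroxylases that turn arachidonic acid into a vasoactive lipid, were almost silent in females. Cyp4a12a was at 0.154, 0.0879, 0.0740 and 0.324 CPM in the females and 43.4, 121, 42.4 and 62.7 CPM in the males (-8.56 ± 0.60, adjusted p = 1.97e-04). Cyp4a12b was at 0 in all females and at 16.3, 18.0, 31.97 and 34.8 CPM in the males, at least 440-fold lower in females with the females set at 3 counts over the group (adjusted p = 0.00117). The pair held 9 counts over all female libraries and 4541 over the male libraries. The rest of the Cyp4a cluster behaved differently: Cyp4a14 was at 551, 341, 106 and 1627 CPM in the females and 210.1, 367, 21.5 and 14.33 CPM in the males, which overlap, and it was not called (adjusted p = 0.537).

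The other genes with the largest lower levels in females included enzymes of lipid elongation, steroid reduction and acetylation. Elovl3, an elongase of very long fatty acids, was at 1.78, 1.23, 1.11 and 2.01 CPM in the females and 170.1, 366, 279.9 and 438 CPM in the males (-7.66 ± 0.37, adjusted p = 1.46e-06). Hsd3b5, which in mouse liver encodes a 3-ketosteroid reductase, was at 0.309, 0.791, 2.67 and 3.31 CPM in the females and 86.8, 130.4, 238 and 226 CPM in the males (-6.54 ± 0.70, adjusted p = 0.00395). Its neighbours on chromosome 3 were lower by less, Hsd3b2 by 0.88 and Hsd3b3 by 0.99 on the log2 scale, so that 3 of 4 tested Hsd3b genes were called, and 1 of 4 without females 2 and 4, where Hsd3b5 was at -6.81 (adjusted p = 0.0628 with 2 libraries required). Cyp2d9, a steroid 16-alpha-hydroxylase, was at 21.7, 20.9, 15.6 and 28.3 CPM in the females and 445, 601, 575 and 723 CPM in the males (-4.76 ± 0.22, adjusted p = 1.4e-07). It was the only called gene among 5 tested Cyp2d genes. Nat8, an N-acetyltransferase, was at 0.154, 0.528, 0.296 and 0.195 CPM in the females and 8.12, 9.76, 9.82 and 12.7 CPM in the males (-5.11 ± 0.29, adjusted p = 1.23e-06).

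Some called genes lay in one cluster with called genes of the opposite direction. In the organic anion transporter cluster of chromosome 19, Slc22a26 was at 203, 75.4, 192 and 243 CPM in the females and 3.25, 0.947, 0.948 and 0.548 CPM in the males (6.96 ± 0.64, adjusted p = 0.00152), and Slc22a27 was at 50.8, 60.9, 58.0 and 37.6 CPM in the females and 4.45, 2.84, 0.948 and 0.639 CPM in the males (4.52 ± 0.48, adjusted p = 0.00256). Slc22a28, from the same cluster, was at 0.463, 0.264, 0.370 and 1.10 CPM in the females and 7.27, 11.4, 10.4 and 16.6 CPM in the males (-4.29 ± 0.38, adjusted p = 1.15e-04). The groups did not overlap in these 3 genes, as in all called genes. Of the 267 called genes, 78 (29.2%) had another called gene within 100 kb, and of all tested genes 6.12% had a called gene that near. Most of these neighbours shared a direction. Beside another higher gene lay 28 higher genes (21.5%), against 3.42% of all tested genes that had a higher gene that near. Beside another lower gene lay 41 lower genes (29.9%), against 2.81% of all tested genes that had a lower gene that near. Neighbours such as the Mup genes are near copies, and the split of reads between them is uncertain. Chromosome 4, which carries the Mup and Cyp4a genes, had 3 higher and 24 lower genes (3.37% of its tested genes), and chromosome 5 had 17 higher and 10 lower (3.33%).

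Gene lists were then counted, each to be read against the 1.07% higher and 1.13% lower of all tested genes. Among 56 tested genes of the families Cyp1 to Cyp4, 11 were higher and 8 were lower, with a median log2 fold change of 0.20. Without females 2 and 4, and with 2 libraries required, the counts were 11 and 7. Of 14 tested Sult genes, 5 were higher (Sult2a1, Sult2a2, Sult2a5, Sult3a1 and Sult3a2) and Sult1b1 was lower. Glucuronosyltransferases (Ugt, 18 tested), glutathione transferases (Gst, 21 tested) and carboxylesterases (Ces, 12 tested) each had 1 higher and 1 lower gene. Of 28 genes listed as male-predominant, 26 were tested, 19 were lower in females and 0 were higher (12 lower without females 2 and 4). Of 30 genes listed as female-predominant, 18 were higher and 0 were lower (18 again without females 2 and 4 where 2 libraries were required). These last 2 lists were assembled with sex differences in mouse liver and earlier results of these data in mind, so their direction is not independent evidence.

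**Figure D4:**
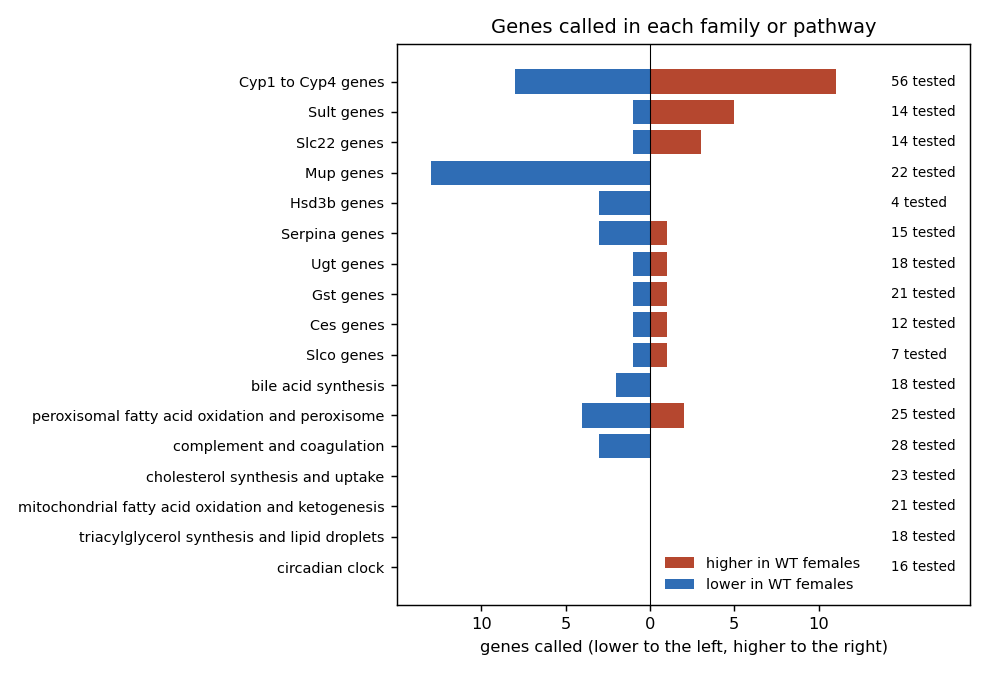
Number of genes called in each gene family or pathway, higher in WT females to the right (red) and lower to the left (blue), with the number of genes tested at the right edge. The Cyp genes were called in both directions (11 and 8), the Mup genes only as lower (13 of 22), and the 4 lists at the bottom of the plot had no call.

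Among 19 genes of growth hormone and STAT5 signaling, 4 were higher in females and none was lower. Cux2, a transcription factor that represses male-predominant genes in mouse liver, was at 15.4, 14.6, 42.0 and 64.5 CPM in the females and 0.599, 0.583, 0.689 and 0.456 CPM in the males (5.85 ± 0.72, adjusted p = 0.00726). Trim24, a cofactor of nuclear receptors, was at 43.5, 35.3, 65.5 and 102 CPM in the females and 16.7, 13.8, 13.8 and 15.3 CPM in the males (2.05 ± 0.31, adjusted p = 0.0105). The females differed from each other more than the males did in both genes. Prlr, the prolactin receptor, was at 354, 195, 343 and 484 CPM in the females and 139.7, 112, 95.1 and 100.7 CPM in the males (1.62 ± 0.24, adjusted p = 0.00461), and Igfals, which encodes a carrier of insulin-like growth factors, was higher by 0.69 ± 0.16 on the log2 scale (adjusted p = 0.0455). The growth hormone receptor gene Ghr was at 476, 304, 486 and 438 CPM in the females and 524, 537, 595 and 520.4 CPM in the males and was not called (adjusted p = 0.299), and neither were Stat5b (adjusted p = 0.748) or the repressor gene Bcl6 (adjusted p = 0.48). Of 20 tested nuclear receptor genes, 3 were higher: Esr1, the estrogen receptor, at 62.6, 34.1, 72.3 and 53.6 CPM in the females and 28.8, 24.0, 24.8 and 28.8 CPM in the males (1.07 ± 0.20, adjusted p = 0.0155), Nr1i3, the xenobiotic sensor CAR, by 0.95 ± 0.18 (adjusted p = 0.0172), and Nr2f1 by 1.24 ± 0.27 (adjusted p = 0.0359).

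Few bile acid genes passed the test of edgeR. Of 18 tested genes of bile acid synthesis 2 were lower and none was higher. Cyp7b1, the oxysterol 7-alpha-hydroxylase of the alternative pathway, was at 12.8, 10.5, 15.8 and 12.4 CPM in the females and 55.2, 108, 112 and 111 CPM in the males (-2.91 ± 0.23, adjusted p = 5.49e-05), and Scp2, the peroxisomal thiolase of side chain shortening, was at 1898, 1616, 1204 and 2005 CPM in the females and 2617, 3583, 2778 and 3214 CPM in the males (-0.86 ± 0.18, adjusted p = 0.0301). Cyp7a1, the rate-limiting enzyme of the classic pathway, was at 148, 30.2, 174 and 141 CPM in the females and 126, 69.6, 99.5 and 59.6 CPM in the males, which overlap (adjusted p = 0.747). Cyp8b1, the 12-alpha-hydroxylase that sets the share of cholic acid, was at 231, 198, 268 and 119.9 CPM in the females and 525, 513, 286 and 385 CPM in the males. It did not pass in edgeR (-1.07 ± 0.26, adjusted p = 0.069), while DESeq2 with length offsets called it (adjusted p = 0.00246). DESeq2 with length offsets also called Baat, which joins bile acids to taurine, lower in females (-0.60, adjusted p = 0.00397). The transporter gene Abcc4 was called higher in females there (1.36, adjusted p = 8.26e-05). In edgeR, Cyp8b1 was also not called between the sexes in KO mice on the CD (0.47), WT mice on the WD (-0.15) or KO mice on the WD (-0.62). Among transporters, Slco1a1, an uptake carrier of organic anions, was at 6.72, 9.06, 30.4 and 55.9 CPM in the females and 338, 419, 427 and 444 CPM in the males (-3.99 ± 0.72, adjusted p = 0.0449), and Abcc3, an exporter to the blood, was at 162, 109, 139 and 225 CPM in the females and 79.5, 100, 82.0 and 62.8 CPM in the males (0.97 ± 0.21, adjusted p = 0.0418).

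Nudt7 itself was lower in WT females. It was at 170.5, 233, 179 and 120.4 CPM in the females and 343, 341, 580.4 and 631 CPM in the males (-1.43 ± 0.25, adjusted p = 0.0147), with no overlap. Without females 2 and 4 it kept its size but not its call (-1.44, adjusted p = 0.0796 with 2 libraries required), and the call was lost likewise for C6, Slco1a1, Hsd3b2, Lpl, Nr2f1, Gsta4 and Adh4. The other CoA hydrolase genes Nudt8 (adjusted p = 0.655) and Nudt19 (adjusted p = 0.979) were not called. Of 23 tested genes of CoA synthesis and hydrolysis, the 2 that were higher were acyl-CoA thioesterases. Acot3 was at 73.5, 88.7, 72.5 and 146 CPM in the females and 9.15, 3.06, 1.81 and 4.47 CPM in the males (4.37 ± 0.51, adjusted p = 0.00438), and its neighbour Acot4, which cleaves dicarboxylic acyl-CoA in mouse, was at 134, 170.5, 146 and 195 CPM in the females and 69.5, 46.2, 32.3 and 48.9 CPM in the males (1.71 ± 0.21, adjusted p = 0.00117).

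The 2 peroxisomal hydroxyacid oxidases went in opposite directions. Hao2 was at 29.3, 25.2, 28.2 and 41.2 CPM in the females and 0.171, 0.0728, 0.345 and 0.182 CPM in the males (7.29 ± 0.29, adjusted p = 5.84e-08). Hao1, the glycolate oxidase, was at 169, 164, 136 and 172 CPM in the females and 253, 320.4, 264 and 307 CPM in the males (-0.84 ± 0.12, adjusted p = 0.00337). Of 25 tested peroxisomal genes, Hao2 and Ehhadh were higher, and Hao1, Nudt7, Phyh and Scp2 were lower. The peroxisomal catalase gene Cat was not called by edgeR (-0.35 ± 0.13, adjusted p = 0.211), while DESeq2 with length offsets called it (-0.35, adjusted p = 0.04). No gene was called among 23 of cholesterol synthesis and uptake, 12 of sterol efflux and LXR targets, 21 of mitochondrial fatty acid oxidation, 18 of triacylglycerol synthesis, 16 of the circadian clock or 16 ER chaperones, with list medians between -0.21 and 0.06. At an unadjusted p under 0.05 there were 10 of these 106, and Soat1 and Msmo1 were called by DESeq2 without length offsets. With length offsets DESeq2 called Msmo1 (-0.85, adjusted p = 0.0217) and Lipe of the triacylglycerol list (0.80, adjusted p = 0.0019), but not Soat1 (adjusted p = 0.558). Without females 2 and 4, edgeR called Soat1 (0.69, adjusted p = 0.0397). The log2 fold change was above 0 in 3 of the 23 cholesterol genes and 2 of the 16 ER chaperones. In the other lists, in the order above, it was above 0 in 6 of 12, 12 of 21, 8 of 18 and 12 of 16. Without females 2 and 4 the medians of the cholesterol and ER lists were -0.02 and -0.25. Of 16 tested genes of fatty acid uptake, Vldlr, a receptor for triacylglycerol-rich lipoproteins, was higher, at 24.1, 19.4, 18.5 and 22.0 CPM in the females and 8.38, 4.44, 5.08 and 2.83 CPM in the males (2.02 ± 0.25, adjusted p = 0.00144), as was Lpl, the lipoprotein lipase (0.62 ± 0.14, adjusted p = 0.0418).

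Genes for secreted and stress proteins were called in small numbers. Of 28 complement and coagulation genes, 3 were lower. C6, a part of the membrane attack complex, was at 18.6, 13.01, 14.6 and 23.03 CPM in the females and 74.5, 139.7, 126 and 238 CPM in the males (-3.06 ± 0.36, adjusted p = 0.00295), C8b of the same complex was lower by 1.75 on the log2 scale (adjusted p = 0.00255), and F11, clotting factor XI, was lower by 0.70 (adjusted p = 0.0487). Of 15 Serpina genes, Serpina6, which encodes the corticosteroid carrier of plasma, was higher, at 255, 278, 249 and 199.9 CPM in the females and 129.5, 143, 134 and 117 CPM in the males (0.91 ± 0.13, adjusted p = 0.00231), and Serpina1c, Serpina3k and Serpina12 were lower by 1.02, 1.3 and 2.56 on the log2 scale. The metallothioneins Mt1 and Mt2, which bind zinc and copper, were higher by 2.48 ± 0.27 (adjusted p = 5.54e-04) and 2.08 ± 0.43 (adjusted p = 0.0355), the only calls among 21 acute phase and metallothionein genes. Mki67, a marker of dividing cells, was at 4.48, 6.24, 3.92 and 3.18 CPM in the females and 2.05, 1.53, 1.03 and 1.82 CPM in the males (1.46 ± 0.27, adjusted p = 0.0156), the only call among 7 cell division genes. No marker of macrophages, endothelial cells, stellate cells, T cells, neutrophils, cholangiocytes, adipocytes or erythroid cells was called by edgeR or DESeq2 (47 tested, 4 at an unadjusted p under 0.05). All 11 tested macrophage markers leaned higher in females (median log2 fold change 0.21), while 1 of 5 cholangiocyte markers did. The macrophage sums overlapped, at 499, 459.5, 486 and 464 CPM in the females and 364, 352, 363 and 577 CPM in the males.

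The same comparison was then made in 3 sets of libraries that shared none with the WT mice on the CD. On the scale of all 32 libraries, KO female 3 on the CD (3642 CPM) and WT female 4 on the WD (581 CPM) also held pancreatic transcripts. In KO mice on the CD, 811 of 12170 autosomal genes were called (6.66%), and 170 of the 267 WT calls were among them with the same sign, which was 63.7% of the WT calls and 21.0% of the KO calls. Without WT females 2 and 4 and KO female 3 in these comparisons 133 were shared, or 164 with 2 libraries required. On the scale of all 32 libraries, KO female 2 (152.1 CPM of acinar markers) and WT females 1 and 3 (85.05 and 68.08 CPM) were kept. In WT mice on the WD, 1157 of 12133 were called (9.54%), with 207 shared (77.5% and 17.9%). In KO mice on the WD, 1187 of 12306 were called (9.65%), with 179 shared (67.0% and 15.1%). The sign was the same for 96.2%, 97.3% and 93.9% of the WT calls that could be tested in KO on the CD, WT on the WD and KO on the WD, against 64.4%, 64.6% and 59.2% of all genes. The sizes were also near: the median log2 fold change of the higher genes was 1.25 in KO mice on the CD and 1.45 in WT mice on the CD, and that of the lower genes was -1.04 in KO and -1.15 in WT. In all 4 comparisons 130 genes were called in the same direction, 57 higher and 73 lower. One of the 267, Abcc3, was called with the opposite sign in KO mice on the WD (-0.72, adjusted p = 0.0103). In KO livers on the CD, Nudt7 still gave 21.2 to 45.3 CPM in females and 60.7 to 249 CPM in males, scaled over all 32 libraries, so reads of the gene remained in KO mice of both sexes.

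**Figure D5:**
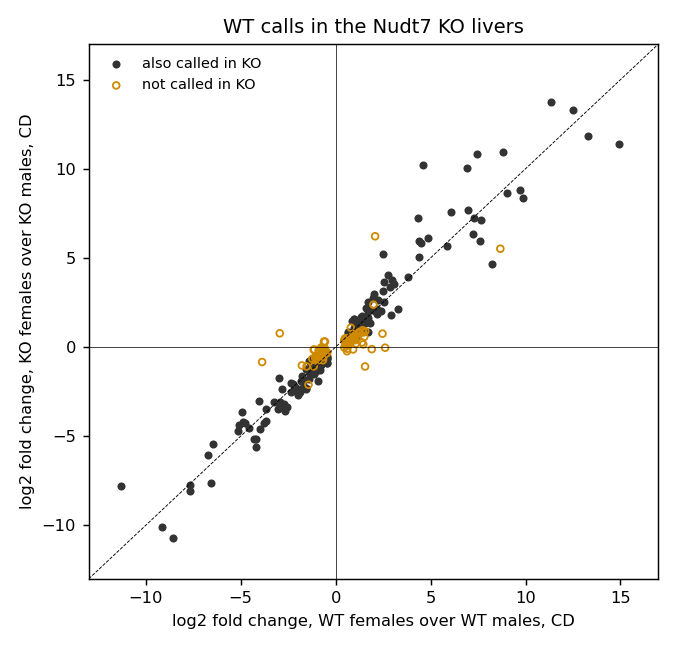
Log2 fold change of KO females over KO males on the CD (vertical) against that of WT females over WT males on the CD (horizontal), 1 point per WT call that was tested in both, filled where it was also called in KO, with the diagonal dashed. The 2 comparisons share no library, and 255 of 265 points have the same sign on both axes.

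Of the 267 genes, 30 were called in none of the other 3 comparisons, 16 higher and 14 lower. The largest of them was Tpst2, a tyrosylprotein sulfotransferase gene on chromosome 5, named here after its values were seen. It was at 2.08, 1.41, 1.41 and 1.23 CPM in the WT females on the CD and 20.5, 22.6, 21.5 and 25.2 CPM in the WT males on the CD (-3.87 ± 0.17, adjusted p = 9.35e-08). Over all 32 libraries its level fell in 2 ranges, 16 libraries at 0.547 to 2.32 CPM and 16 at 11.3 to 26.2 CPM, with none between. Outside the WT mice on the CD the low range held 1 of 4 WT females and 2 of 4 WT males on the WD, 2 of 4 KO females and 1 of 4 KO males on the CD, and 2 of 4 KO females and 4 of 4 KO males on the WD. The split thus did not follow sex over the series, and its cause was not tested. Mki67, Lpl and Nr2f1 were also among the 30.

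Whether the sex difference itself depended on genotype or diet was tested in 1 model of all 32 libraries, with 13109 autosomal genes. Between WT and KO mice on the CD, 1 gene differed (0.00763%): Pdk2, a kinase that inhibits pyruvate dehydrogenase. It was at 74.2, 74.8, 79.3 and 73.3 CPM in WT females and 91.2, 84.8, 97.0 and 86.3 CPM in WT males, and at 121, 91.9, 81.8 and 105 CPM in KO females and 65.9, 57.4, 68.8 and 50.9 CPM in KO males. The female values were the lower ones in WT and the higher ones in KO, a difference of -0.97 ± 0.17 on the log2 scale (adjusted p = 0.0429), and within WT alone Pdk2 was not called (adjusted p = 0.259). At an unadjusted p under 0.05 there were 1336 genes, and DESeq2 with length offsets called 46. The count moved with single libraries: it was 0 without any 1 of KO female 1 or 4, KO male 1, 2 or 4, WT female 1, 2 or 4, or any 1 WT male, 8 without KO female 2 and 5 without WT female 3. Between the CD and the WD in WT mice 0 genes (0.0%) differed by the edgeR test (smallest adjusted p = 0.123, Cyp2d9), with 1137 at an unadjusted p under 0.05 and 29 by DESeq2 with length offsets.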

How the data were processed

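Liver RNA of 32 libraries (8 groups of 4) was sequenced as 50 bp paired reads, and 8 libraries were compared here. Per the labels and methods, the authors quantified each library with Salmon 1.3.0 against a GRCm38 index and deposited estimated counts, TPM, lengths and effective lengths per transcript. TPM and lengths served only the alternatives with length offsets. For each gene of the GENCODE M21 annotation (GRCm38) the estimated counts of its transcripts were added up and rounded. The main test was the quasi-likelihood test of edgeR 4.0.16 (R 4.3.3; TMM scaling, robust fit) on genes that reached 10 counts in 4 or more libraries, with Benjamini-Hochberg adjustment over all tested genes of all chromosomes and a limit of 0.05, and only chromosomes 1 to 19 were described. The authors had used DESeq2 1.28.1 with the same filter, so DESeq2 1.42.0 was an alternative, beside other scaling, filters, length offsets, a replicate block, 1 model of all libraries and leaving out libraries. The script was tested on simulated data. Errors of log2 fold changes are SE, from the F statistic, with 4 libraries per group. The labels give no mouse identifier, and the study describes its points as individual liver samples. Counting intervals (95%) cover counting error only. A word was a run of 31 bases in the transcripts. In 16 of the 106 named genes under 50% of the words were the gene's own. Serpina1c (17.8%), Slc22a28 (31.8%) and Nr1i3 (31.9%) were among them, so their single-gene levels are less certain.

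Members and lists were chosen with earlier results of these data known. Named genes were the 10 called, protein-coding genes per direction with the largest fold change, a mean log2 CPM above 1 and no overlap, up to 3 genes of smallest p per list, a set of CoA, bile acid and Cyp2a genes, and the largest called differences between contrasts. Other list members, Cyp2b9 and Tpst2 were named after their values were seen. One gene is not reported here.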

Additional observations from a re-analysis of the deposited data

Results flagged for a closer look

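Among the 106 named genes, each with 2 groups, 9 had 1 library that stood far from the other 3 of its group. Such a gap is met by chance in about 1 in 20 groups, and a count of 9 is not more than this rate would give. In 2 of them male 1 was nearer to the female level: Slc22a26 at 3.25 CPM (other males 0.548 to 0.948) and Cyp7b1 at 55.2 CPM (108 to 112). Male 1 was also the lowest male for Slc27a1, a fatty acid transport gene, at 3.16 CPM (3.96 to 4.11). Male 2 was the lowest for Mt1 at 2.18 CPM (3.92 to 4.11), male 3 was the highest for Gsta3 at 2222 CPM (1730.4 to 1754), and male 4 was the lowest for Nr1i3 at 87.2 CPM (144 to 147). Among females, female 1 was the highest for Cyp2b13 at 151 CPM (129.6 to 132), female 4 the highest for Nr2f1 at 1.56 CPM (1.39 to 1.41), and female 2, one of the libraries with pancreatic transcripts, the lowest for Slco1a4 at 67.1 CPM (133 to 145).

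One difference between groups was found by its own test: the sex difference of Pdk2 on the CD was -0.97 on the log2 scale when that of KO was taken from that of WT.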

How the results depend on the processing

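The count of 267 called genes was 576 by DESeq2, 564 by DESeq2 with length offsets and 593 in 1 model of all 32 libraries, and 262, 255 and 245 of the 267 were among them. It ranged from 140 to 407 with 1 library left out, and other scaling, filters, length offsets in edgeR or leaving out females 2 and 4 kept it within 1.5 times. The 170 calls shared with KO mice became 280 by DESeq2 with length offsets. The single gene whose sex difference differed between WT and KO became 0 with RLE size factors and with no filter. It also became 0 without the 4 libraries of highest acinar sum (WT females 2 and 4 and KO female 3 on the CD, WT female 4 on the WD). The count was 3 with the replicate block, 46 by DESeq2 with length offsets, and 0 to 8 with 1 library left out. The 0 genes between diets became 3 with the replicate block, 29 by DESeq2 with length offsets, and 0 to 18 with 1 library left out. The 18 came without female 4 of the WT mice on the WD, a library with pancreatic transcripts. Without the same 4 libraries of highest acinar sum, that one among them, the count was 0. Replicate numbers did not pair the sexes: same-numbered females and males had correlations of -0.227 to -0.01, 0 libraries correlated best with their own number, and with the replicate block 216 genes were called. Of 66 named calls, 718 of 780 values under other settings stayed called, 62 lost the call and 0 changed sign, while leaving out 1 library lost 77 of 468. Among named genes not called, Nudt19 changed sign with the replicate block (-0.0069), without females 2 and 4 where 2 libraries were required (-0.003) and with 1 library left out (range -0.11 to 0.13), and Fitm2 without females 2 and 4 (-0.21 under either requirement) and without female 4 (range with 1 library left out -0.13 to 0.22). Silent genes limit what depth can show: 3 counts over a group are 0.0564 CPM in the females and 0.0625 CPM in the males.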

Other observations

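Male 1 lay nearest to the females over many of the called genes. Of the 127 genes called higher in females with a single highest male, male 1 was that male for 58 (45.7%), against 24.9% of all tested genes. Of the 137 genes called lower in females, male 1 was the lowest male for 58 (42.3%), against 22.5% of all tested genes. Cyp2b9, which was not called, was also highest in male 1, at 181 CPM against 1.19 to 20.9 CPM in the other males. On the scale of all 32 libraries the males of the other groups were at 0.152 to 2.10 CPM (KO, CD), 0.288 to 16.6 CPM (WT, WD) and 3.55 to 20.9 CPM (KO, WD) for Cyp2b9. Male 4 was at the other end for the genes lower in females, being the highest male for 52 of 137 (38.0%), against 25.0% of all tested genes. Male 1 had the lowest acinar sum of the 8 libraries, 13 CPM. Since the called genes were chosen on these libraries, the counts describe them and carry no test.

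While Mki67 was higher in females, Mcm10, a DNA replication factor, was lower, at 5.71, 7.47, 5.41 and 7.20 CPM in the females and 14.6, 22.9, 18.96 and 18.2 CPM in the males (-1.54 ± 0.17, adjusted p = 3.61e-04).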
